A study of Mus musculus with 24 samples.

Results

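The genes described here are 32 mouse genes of cholesterol synthesis, sensing, transport and efflux, taken by their symbols in GENCODE M21 from the 22165 genes of a table of RNA-seq counts. All 32 were found, and all 32 had enough reads to be tested among 11878 genes. They comprise 19 enzymes of the pathway from acetyl-CoA to cholesterol and 3 regulators of the response to sterols (Srebf1, Srebf2 and Insig1), called the sensing genes. Intracellular sterol transport has 2 genes (Stard4 and Npc1). The liver X receptor (LXR) and efflux arm has 5 (Nr1h2, Nr1h3, Abca1, Abcg1 and Mylip). The others are the oxysterol-forming enzyme gene Ch25h and 2 fatty acid synthesis genes that the same regulators control (Scd2 and Fasn).

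The samples were bone marrow-derived macrophages (BMDMs) grown for 7 days in M-CSF from mice of 8 to 20 weeks. One genotype was WT C57BL/6N, bought from a supplier, and the other was Irg1 KO C57BL/6N, which lacks the enzyme that makes itaconate. The sources do not describe the genotypes as littermates, so genotype and colony cannot be told apart. Cells were left without LPS (Unstim.), given LPS at 100 ng/ml for 24 h and harvested at once (LPS 24h), or given LPS for 24 h, moved to fresh medium for 1 h and given LPS again for 3 h (LPS 24h->LPS 3h, called tolerized). The LPS 3h cells, called non-tolerized, went through the medium change and rest but received only the second dose. LPS 24h cells had no medium change, so the second dose and the fresh medium cannot be told apart in the comparison of LPS 24h->LPS 3h with LPS 24h. No medium change is given for Unstim. cells either. LPS and the fresh medium thus cannot be told apart in LPS 3h against Unstim. or in LPS 24h against LPS 3h. With 3 cultures for each of the 8 combinations of genotype and treatment there were 24 libraries.

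Cells take cholesterol from outside or build it from acetyl-CoA. When membrane sterol falls, the protein SREBP2, encoded by Srebf2, leaves the endoplasmic reticulum with its escort SCAP, is cut in the Golgi and switches on the synthesis genes, while INSIG1 holds the complex back. When oxysterols rise, LXR switches on the exporters ABCA1 and ABCG1 and the ubiquitin ligase MYLIP, which removes lipoprotein receptors from the surface. Macrophages are known for this efflux arm, and for making the oxysterol 25-hydroxycholesterol with CH25H when they meet LPS or interferon.

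Gene counts ran from 3927378 to 20430359 per library, with a median of 11539056. Irg1 is listed under its current symbol Acod1, and it had 3794 to 28063 CPM (counts scaled to the library's total) in the 9 WT libraries with LPS and 1.58 to 26.4 CPM in the 9 Irg1 KO libraries with LPS, as the labels require. The macrophage markers Lyz2, Adgre1, Cd68 and Csf1r were present in every library. The WT LPS 24h culture 3 stood apart, with the lowest Lyz2 (1210 CPM), Cd68 (66.9 CPM) and Csf1r (128 CPM) of all libraries. Its level of the macrophage marker Itgam (887 CPM) was the highest of its group. The WT LPS 24h->LPS 3h culture 3 had the highest Itgam of all libraries (1382 CPM). Its Lyz2 (2420 CPM) and Cd68 (174 CPM) were the lowest of its group. The macrophage marker Fcgr1 was higher in WT LPS 24h (244 to 702 CPM) than in WT Unstim. (35.7 to 61.8 CPM). Mertk was lower (162 to 211 against 314 to 421 CPM). The 5 markers of neutrophils and their precursors summed to 38.6 to 85.1 CPM in the libraries of Unstim. and LPS 3h and to 0.969 to 7.06 CPM in both treatments that began with 24 h of LPS, and the 3 fibroblast markers summed to 62.0 to 119 CPM and to 23.2 to 69.9 CPM in the same libraries. Mast cell, T cell, B cell and dendritic cell markers summed to at most 2.99 CPM in any library. The neutrophil list thus moved with the 24 h of LPS. The summed fibroblast ranges overlapped, and the members of that list differed. In WT Col1a1 had 18.1 to 45.7 CPM at LPS 24h against 42.0 to 105 CPM in Unstim. Col3a1 had 17.8 to 23.5 CPM against 8.73 to 19.8 CPM in the same groups. The part of both lists in the results was not tested. In these bulk samples, fewer cells of a type and less RNA per cell cannot be told apart.

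The labels carry a prefix with 4 values that is read here as the sequencing pool. All Unstim. libraries were in pool 4, WT cultures 1, 2 and 3 under LPS were in pools 1, 2 and 4, and the Irg1 KO libraries under LPS were in pools 1, 2 and 3. No Irg1 KO library with LPS shared a pool with an Irg1 KO Unstim. library, so for that comparison pool and treatment cannot be told apart. Pool 3 held only Irg1 KO LPS 3h cultures 2 and 3. In the fit that includes pool as a term, all Irg1 KO LPS 3h values therefore rested on culture 1 of that group. Levels are given as CPM after TMM normalization, a scaling for library size and composition, and they are compared between groups for 1 gene at a time, not between genes. Changes are log2 fold changes from edgeR's quasi-likelihood test with their standard errors (SE), and an adjusted p under 0.05 (Benjamini-Hochberg over the 11878 genes) is called a change.

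Of the 32 genes, 17 changed in at least 1 comparison between treatments within a genotype and 15 did not, which is 53.1% beside 62.6% of all genes tested. Ch25h, Scd2, Nr1h3, Abcg1, Mylip, Insig1, Lss, Dhcr7 and Msmo1 were called in the same direction in both genotypes in at least 1 comparison. Of the 19 enzymes of the pathway, 8 changed at least once (Hmgcs1, Mvd, Idi1, Lss, Cyp51, Msmo1, Sc5d and Dhcr7), 42.1% beside the same 62.6%. After LPS 3h against Unstim., 2 of the 19 were lower in WT (10.5% beside 16.3% of all genes) and 0 higher (beside 15.8%). In Irg1 KO 4 were lower (21.1% beside 18.9%) and 1 (Cyp51) higher (5.26% beside 17.0%). Differences between genotypes were few, and Abcg1 after LPS 24h was the only gene called.

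After LPS 3h against Unstim., 2 genes rose in WT (Insig1 and Ch25h), which is 6.25% of the 32 beside 15.8% of all genes tested, and 5 fell (Lss, Dhcr7, Nr1h3, Abcg1 and Mylip), 15.6% beside 16.3%. In Irg1 KO cells 3 rose (Cyp51, Insig1 and Ch25h), 9.38% beside 17.0%, and 7 fell (Mvd, Msmo1, Sc5d, Dhcr7, Npc1, Abcg1 and Mylip), 21.9% beside 18.9%. The shares of genes that fell were thus near those of all genes, and the shares that rose were below them. The median log2 fold change of the 32 was -0.32 in WT and -0.17 in Irg1 KO, beside -0.18 and -0.20 for all genes.

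After LPS 24h against Unstim., 3 genes rose in WT (Nr1h3, Ch25h and Scd2), 9.38% beside 9.25% of all genes, and 2 fell (Stard4 and Mylip), 6.25% beside 6.98%. Irg1 KO cells had 2 that rose (Nr1h3 and Scd2), 6.25% beside 7.31%, and 2 fell (Abcg1 and Mylip), 6.25% beside 6.38%. None of the 19 enzymes passed the threshold in either genotype in this comparison by edgeR's test, and 0 in WT and 1 in Irg1 KO had an unadjusted p under 0.05, beside 27.3% and 25.0% of all genes. The median of the 32 genes was -0.0013 in WT and 0.0076 in Irg1 KO.

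Between the 2 single LPS times, LPS 24h against LPS 3h, 4 genes were higher in WT (Lss, Nr1h3, Abcg1 and Scd2), 12.5% beside 16.8%, and 4 were lower (Srebf2, Insig1, Stard4 and Ch25h), 12.5% beside 15.5%. In Irg1 KO cells 6 were higher (Mvd, Lss, Msmo1, Dhcr7, Nr1h3 and Scd2), 18.8% beside 18.2%, and 4 were lower (Idi1, Cyp51, Insig1 and Ch25h), 12.5% beside 16.9%. Ch25h, Insig1, Lss, Nr1h3 and Scd2 were called in the same direction in both genotypes. All genes had a median of 0.14 in WT and 0.15 in Irg1 KO here, and the 32 had 0.33 and 0.016.

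After the second dose, LPS 24h->LPS 3h against LPS 24h, 0 of the 32 genes rose in WT, beside 2.46% of all genes, and 2 fell (Abcg1 and Scd2), 6.25% beside 1.53%. Irg1 KO cells had 3 that rose (Hmgcs1, Idi1 and Ch25h), 9.38% beside 3.44%, and 2 fell (Abcg1 and Scd2), 6.25% beside 1.70%. Abcg1 and Scd2 thus fell in both genotypes. An unadjusted p under 0.05 was found for 8 of the 32 in WT and 10 in Irg1 KO, beside 16.6% and 15.8% of all genes.

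Tolerized against non-tolerized cells, LPS 24h->LPS 3h against LPS 3h, showed 3 genes higher in WT (Msmo1, Nr1h3 and Scd2), 9.38% beside 12.4%, and 1 lower (Ch25h), 3.12% beside 13.1%. Irg1 KO cells had 4 that were higher (Hmgcs1, Msmo1, Nr1h3 and Scd2), 12.5% beside 13.1%, and 4 were lower (Insig1, Abcg1, Mylip and Ch25h), 12.5% beside 14.1%. Msmo1, Nr1h3, Scd2 and Ch25h were called in both genotypes in the same direction. The comparisons share groups and so share libraries, and their values are given side by side without being counted as separate support.

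**Figure D1:**
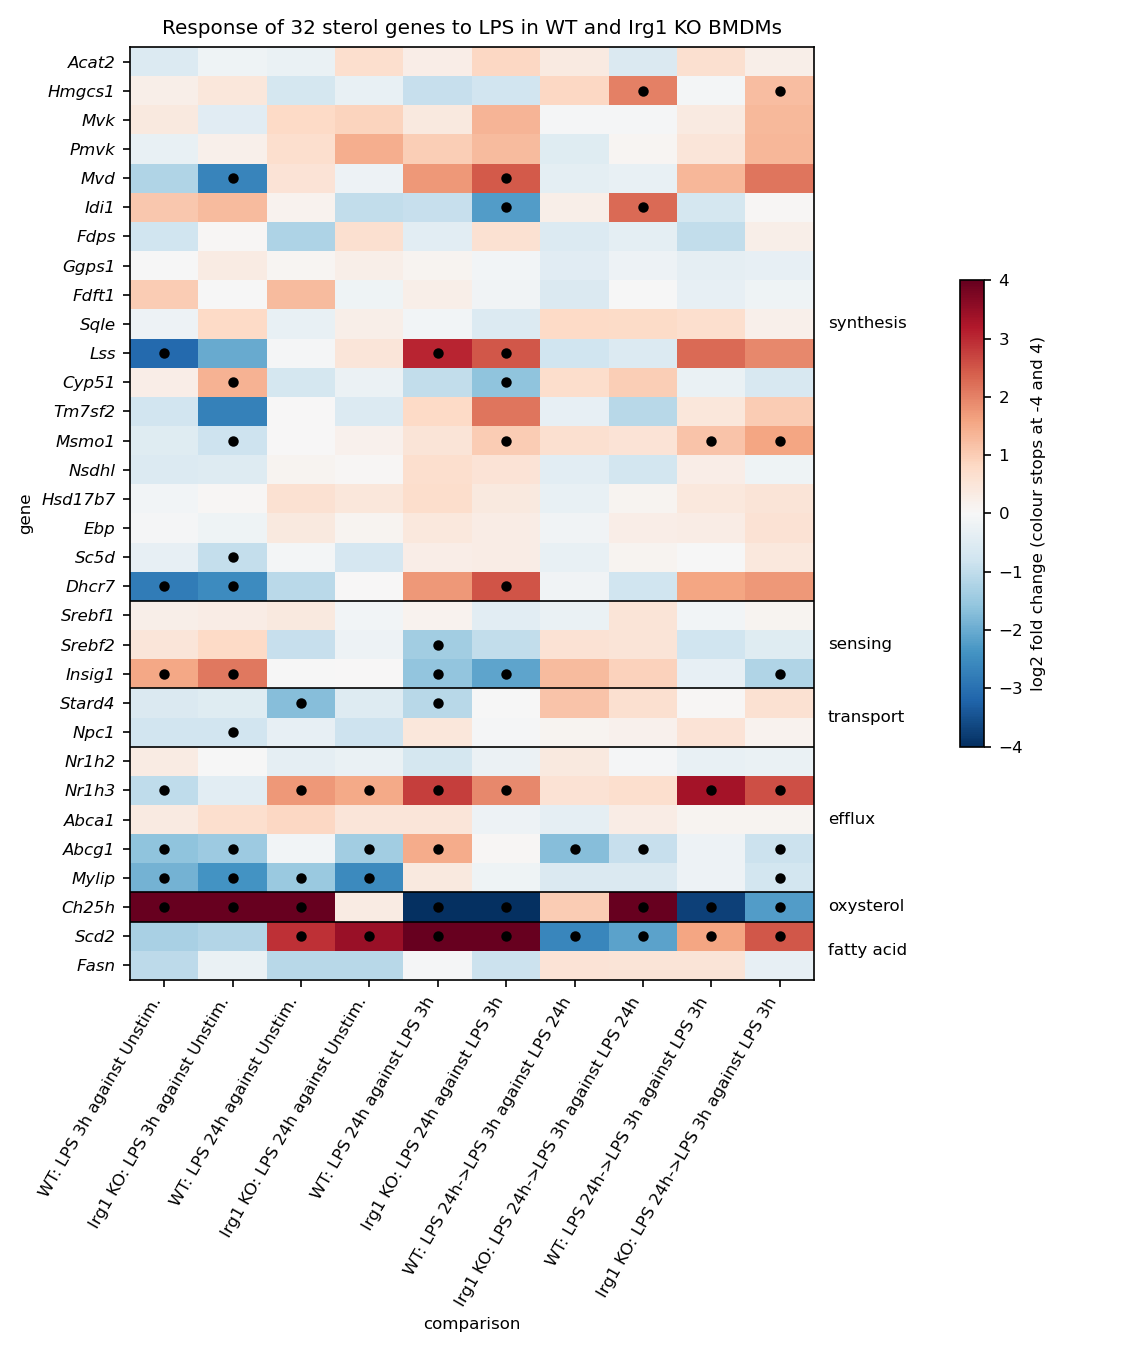
Log2 fold changes of the 32 genes (rows, grouped by role) in 5 comparisons of treatments for each genotype (columns), fitted with edgeR. Red is higher, blue is lower, colours stop at -4 and 4, and a black dot marks an adjusted p under 0.05. Ch25h, Scd2, Nr1h3, Abcg1 and Mylip carry most of the dots, while 11 of the 19 synthesis rows carry none.

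Among the sensing genes, Insig1 moved most. INSIG1 is the membrane protein that retains the SREBP and SCAP complex, and its gene is itself a target of SREBP. In WT it had 28.5, 22.9 and 22.9 CPM in the 3 Unstim. cultures, 63.6, 83.8 and 70.3 CPM after LPS 3h, 25.0, 27.9 and 20.3 CPM after LPS 24h, and 40.2, 81.1 and 53.1 CPM after LPS 24h->LPS 3h. In Irg1 KO it had 30.1, 30.2 and 11.7 CPM, then 61.6, 86.5 and 159 CPM, 23.5, 34.8 and 13.3 CPM, and 53.3, 49.7 and 31.9 CPM in the same order of treatments. Every LPS 3h culture lay above every Unstim. and every LPS 24h culture of its genotype. The rise at 3 h was 1.55 (SE 0.38, adjusted p = 0.00209) in WT and 2.11 (SE 0.39, adjusted p = 8.06e-05) in Irg1 KO, and the pool 4 libraries alone gave 1.51 in WT. With pool as a term the Irg1 KO rise was 0.95 and was not called, in a fit that rested on LPS 3h culture 1. From LPS 3h to LPS 24h it fell by 1.57 (SE 0.39, adjusted p = 0.00219) in WT, with -1.34, -1.58 and -1.78 in pools 1, 2 and 4, and -2.10 (SE 0.39, adjusted p = 8.54e-05) in Irg1 KO (-0.89, adjusted p = 0.313, with pool as a term). LPS 24h and Unstim. cultures overlapped, with log2 fold changes of -0.023 (SE 0.38) in WT and 0.0022 (SE 0.38) in Irg1 KO. The second dose gave 1.25 (SE 0.38) in WT without overlap between groups, which was not called (adjusted p = 0.0585), and 0.92 (SE 0.38, adjusted p = 0.199) in Irg1 KO with 1 culture inside the LPS 24h range. Tolerized Irg1 KO cells were below non-tolerized ones, with a log2 fold change of -1.19 (SE 0.38, adjusted p = 0.0193), which was -0.15 with pool as a term (adjusted p = 0.901), and the call was lost without LPS 3h culture 3 (-0.74, adjusted p = 0.177) or LPS 24h->LPS 3h culture 3 (-1.01, adjusted p = 0.0864).

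Srebf2, which encodes the regulator of the pathway, had 8.02, 12.4 and 11.4 CPM in the WT LPS 3h cultures and 5.48, 4.11 and 2.67 CPM in the WT LPS 24h cultures. It was lower after 24 h, with a log2 fold change of -1.38 (SE 0.47, adjusted p = 0.0225), and the groups did not overlap. Without WT LPS 24h culture 3 the difference was -1.26 and not called (adjusted p = 0.0694), and without WT LPS 3h culture 2 it was -1.33 (adjusted p = 0.0554). The Irg1 KO value was -1.0 (SE 0.46, adjusted p = 0.0883). Srebf1, whose products serve mainly fatty acid synthesis, had group means from 12.3 to 19.1 CPM and passed no test. Exons of Srebf1 overlap those of Rai1 on the other strand and Mir6922 on its own, and whether the counting used strand is not stated, so reads of such pairs cannot be told apart.

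The enzymes can be followed in pathway order. ACAT2 joins acetyl-CoA units, HMGCS1 makes the precursor of mevalonate, MVK, PMVK and MVD turn mevalonate into isopentenyl diphosphate, IDI1 isomerizes it, FDPS and GGPS1 build prenyl chains, and FDFT1, SQLE and LSS form squalene, its epoxide and lanosterol. CYP51, TM7SF2, MSMO1, NSDHL, HSD17B7, EBP, SC5D and DHCR7 then carry lanosterol towards cholesterol. Of the 32 genes, 11 had a median under 50 reads per library, 10 of them enzymes of this pathway, so that small changes were not detectable at this depth.

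Hmgcs1 had 18.1, 18.2 and 14.2 CPM in the WT LPS 24h cultures and 36.2, 27.1 and 26.2 CPM after the second dose. In Irg1 KO it had 14.5, 18.9 and 17.1 CPM after LPS 24h and 51.5, 28.3 and 122 CPM after LPS 24h->LPS 3h. The restimulated cultures were above the LPS 24h cultures in both genotypes without overlap, and 1 Irg1 KO culture stood far above the rest. The increase was 2.00 (SE 0.38, adjusted p = 8.67e-04) in Irg1 KO, and 1.27 (adjusted p = 0.0343) without that culture 3, while WT gave 0.82 (SE 0.38, adjusted p = 0.262). The difference between those increases was 1.18 (SE 0.53, adjusted p = 0.517). Within pools the increase was 0.99, 0.57 and 0.87 in WT (pools 1, 2 and 4) and 1.80 in Irg1 KO (pool 1). Against LPS 3h the tolerized Irg1 KO cells were 1.24 higher (SE 0.38, adjusted p = 0.0137), and 0.47 higher without culture 3 (adjusted p = 0.362). That call was also lost without LPS 3h culture 3 (1.10, adjusted p = 0.07) and with pool as a term (1.15, adjusted p = 0.246), and those groups overlapped. Exons of Hmgcs1 overlap those of Gm48342 on the other strand, as do those of Idi1 with Gm48574 and of Cyp51 with Akap9.

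In Irg1 KO cells Idi1 had 18, 6.67 and 3.17 CPM after LPS 3h, 2.16, 1.61 and 2.21 CPM after LPS 24h, and 15.5, 3.05 and 10.7 CPM after LPS 24h->LPS 3h. The LPS 24h cultures were the lowest in each comparison, and the spread within the other groups was wide. The fall to LPS 24h was -2.23 (SE 0.65, adjusted p = 0.00819) and the later rise 2.28 (SE 0.65, adjusted p = 0.0322), which was lost without any 1 of the 3 LPS 24h cultures or without LPS 24h->LPS 3h culture 1 or 3 (1.82 to 2.39, adjusted p = 0.0828 to 0.19). The fall was -1.37 (adjusted p = 0.134) without LPS 3h culture 1 and -2.05 (adjusted p = 0.0795) with pool as a term. In WT the LPS 24h cultures had 1.58, 3.75 and 11.1 CPM and overlapped both other groups. The pool 4 culture was the high one.

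Cyp51, the lanosterol demethylase, had 11.5, 6.60 and 7.28 CPM in Irg1 KO Unstim. cultures, 15.9, 17.1 and 33.1 CPM after LPS 3h, and 7.17, 7.01 and 7.35 CPM after LPS 24h. It was higher after 3 h by 1.38 (SE 0.40, adjusted p = 0.00698) and lower at 24 h than at 3 h, with a log2 fold change of -1.61 (SE 0.39, adjusted p = 0.00178). Without the LPS 3h culture 3 the rise was 1.02 and not called (adjusted p = 0.0642), and with pool as a term it was 1.24 (adjusted p = 0.174) and the later fall -1.39 (adjusted p = 0.127). WT gave 0.27 (SE 0.39) and -0.97 (SE 0.40, adjusted p = 0.0597), and the difference between the genotypes' rises was 1.1 (SE 0.55, adjusted p = 0.873). Sqle, the squalene epoxidase that limits the later steps, passed no test, though its tolerized cultures (11.8, 12.3 and 10.3 CPM in WT, 12.6, 12.8 and 10.8 CPM in Irg1 KO) lay above all LPS 24h cultures of the same genotype (5.97, 9.29 and 4.58 CPM, and 6.36, 7.01 and 7.94 CPM).

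Lss and Dhcr7 went the other way at 3 h. Lss had 3.61, 8.11 and 2.58 CPM in WT Unstim. and 1.09, 0.593 and 0 CPM after LPS 3h, a group that held 11 reads in all. Its fall was -3.12 (SE 0.89, adjusted p = 0.00703), and -2.46 (adjusted p = 0.0533) without Unstim. culture 2. At LPS 24h it had 4.26, 4.92 and 4.49 CPM, above all LPS 3h cultures by 3.06 (SE 0.89, adjusted p = 0.0088; 0.0532 without WT LPS 3h culture 3). In Irg1 KO cells the LPS 3h group held 12 reads, the fall was -2.01 (SE 0.88, adjusted p = 0.0729) and the recovery at 24 h was 2.48 (SE 0.87, adjusted p = 0.0265). That recovery was lost without LPS 3h culture 1 or 3 or LPS 24h culture 2 or 3 (1.95 to 2.45, adjusted p = 0.0544 to 0.128) and with pool as a term (3.73, adjusted p = 0.133). Exons of Lss overlap those of 4930483K19Rik on the other strand.

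Dhcr7, the last enzyme of one branch, had 4.96, 3.82 and 5.41 CPM in WT Unstim. and 1.09, 0.948 and 0 CPM after LPS 3h. In Irg1 KO it had 5.92, 1.88 and 2.78 CPM, then 0.618, 0 and 1.23 CPM. No culture overlapped between these groups, and the LPS 3h groups held 14 and 13 reads. The falls were -2.81 (SE 0.98, adjusted p = 0.0263) and -2.51 (SE 0.99, adjusted p = 0.046), with the WT value past the threshold in 10 of 14 alternative fits and the Irg1 KO value in 5 of 14. Leaving out WT Unstim. culture 1 or 3 or WT LPS 3h culture 2 or 3 ended the WT call (-3.16 to -2.17, adjusted p up to 0.115), as did leaving out Irg1 KO Unstim. culture 1 or 3 or Irg1 KO LPS 3h culture 1 or 2 for the other (-2.62 to -1.89, adjusted p up to 0.185). At LPS 24h the Irg1 KO cultures (3.18, 4.14 and 3.36 CPM) were above those of LPS 3h by 2.53 (SE 0.98, adjusted p = 0.0433), a call kept in 4 of 14 fits and lost without LPS 3h culture 1 or 2 or any LPS 24h culture (1.89 to 2.57, adjusted p up to 0.169).

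Msmo1, which removes a methyl group from lanosterol derivatives, was the enzyme called in tolerized against non-tolerized cells in both genotypes. It had 22.4, 24.4 and 31 CPM in WT after LPS 3h and 48.9, 46.7 and 76.7 CPM after LPS 24h->LPS 3h. In Irg1 KO the values were 21, 17 and 23.9 CPM against 53.5, 70.3 and 60.4 CPM. All tolerized cultures were above all non-tolerized cultures, by 1.15 (SE 0.30, adjusted p = 0.00523) in WT and 1.57 (SE 0.31, adjusted p = 2.29e-04) in Irg1 KO. Within pools the WT difference was 1.12, 0.93 and 1.30, and in Irg1 KO it was 1.34 in pool 2. Without WT LPS 24h->LPS 3h culture 3 it was 0.82 (adjusted p = 0.0636), and the Irg1 KO call held in 14 of 14 alternative fits. Msmo1 in Irg1 KO cells also fell at LPS 3h, with a log2 fold change of -0.84 (SE 0.30, adjusted p = 0.0301), a call kept in 5 of 14 fits and lost without Unstim. culture 2 or 3 or any LPS 3h culture (-0.91 to -0.48, adjusted p up to 0.264). It was 1.01 higher at LPS 24h than at LPS 3h (SE 0.30, adjusted p = 0.00965), which was lost without LPS 3h culture 2 (0.81, adjusted p = 0.0826), without LPS 24h culture 3 (0.75, adjusted p = 0.0877) and with pool as a term (0.92, adjusted p = 0.218).

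Mvd and Sc5d were called in Irg1 KO cells at LPS 3h. Mvd had 11.1, 0.188 and 1.55 CPM in the Unstim. cultures and 0.824, 0.953 and 0.176 CPM after LPS 3h, and the groups overlapped. Its fall of -2.64 (SE 0.89, adjusted p = 0.0207) rested on Unstim. culture 1, and was -0.50 (adjusted p = 0.711) without it. It was also not called without LPS 3h culture 1 or 3 (-2.79 and -2.18, adjusted p = 0.0503 and 0.0943) or with pool as a term (-3.65, adjusted p = 0.101). Mvd at LPS 24h (3.79, 4.84 and 2.51 CPM) lay above all LPS 3h cultures by 2.45 (SE 0.88, adjusted p = 0.0298), a call lost without any 1 LPS 3h culture or LPS 24h culture 1 or 2 (1.98 to 2.66, adjusted p = 0.0546 to 0.126) and with pool as a term (2.80, adjusted p = 0.212). Sc5d had 44.9, 33.6 and 35.6 CPM in Unstim. and 26.5, 14.5 and 17.4 CPM after LPS 3h, with a fall of -0.96 (SE 0.33, adjusted p = 0.0236) that was -0.12 with pool as a term (adjusted p = 0.906) and was lost without Unstim. culture 1 or LPS 3h culture 2 or 3 (-0.83 to -0.72, adjusted p up to 0.153). The other 11 enzymes (Acat2, Mvk, Pmvk, Fdps, Ggps1, Fdft1, Sqle, Tm7sf2, Nsdhl, Hsd17b7 and Ebp) passed no test in any of the 17 comparisons. Their group means lay between 0.431 CPM (Tm7sf2) and 61.7 CPM (Ggps1), and their log2 fold changes between treatments lay between -2.71 and 2.15, both for Tm7sf2 in Irg1 KO. The value nearest the threshold was that of Pmvk in tolerized against non-tolerized Irg1 KO cells (1.33, SE 0.56, adjusted p = 0.0738). Exons of Fdft1 overlap those of Ctsb on the other strand by 774 bases, and those of Fdps, Ggps1 and Tm7sf2 overlap Gm43738, Arid4b and Vps51.

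**Figure D2:**
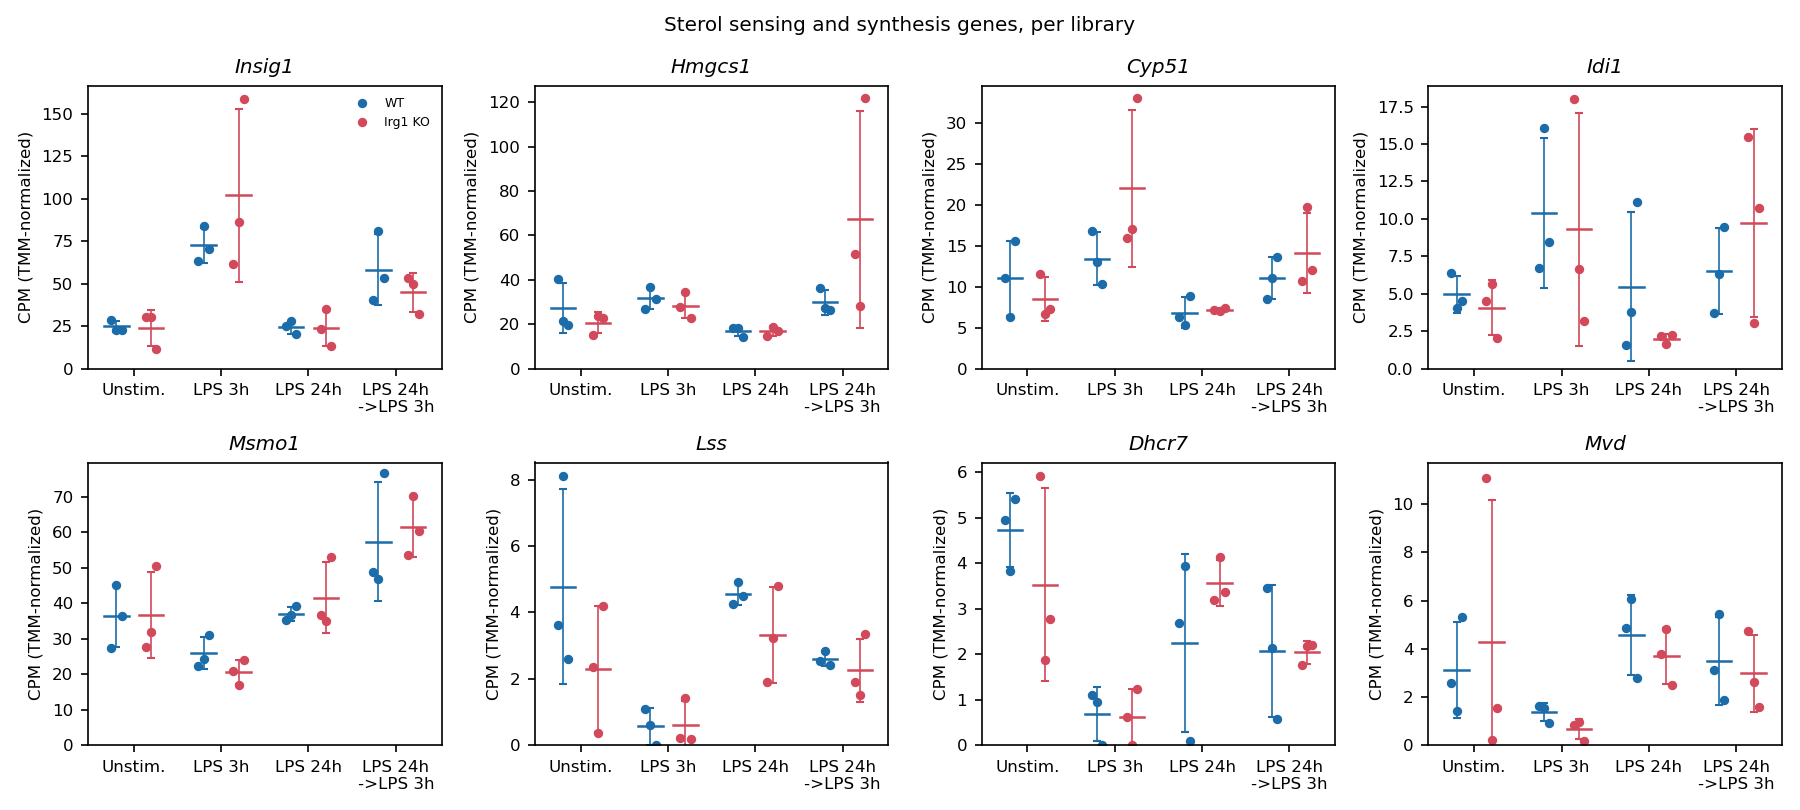
CPM of Insig1 and 7 enzymes of the pathway in each of the 24 libraries, for WT (blue) and Irg1 KO (red) in the 4 treatments. Points are cultures, horizontal lines are means and error bars are SD (n = 3). Insig1 was highest after LPS 3h, Lss and Dhcr7 were lowest there, and 1 Irg1 KO culture of Hmgcs1 stood at 122 CPM after LPS 24h->LPS 3h.

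The promoter letters of 6 genes are shown because they belong to the same pathway and were called in different directions: after LPS 3h Insig1 rose in both genotypes and Cyp51 in Irg1 KO, while Lss fell in WT and Mvd in Irg1 KO, and after the second dose Hmgcs1 and Idi1 rose in Irg1 KO. The Mvd fall rested on Unstim. culture 1 (edgeR -0.50, adjusted p = 0.711, without it). The Cyp51, Lss and Idi1 calls and the Irg1 KO call of Insig1 were also lost in at least 1 fit. Each line gives the 250 bases before the RefSeq start site, 5' to 3' on the gene's strand, in GRCm38.p6, and capitals mark the CCAAT box (CCAAT, or ATTGG on the other strand), which binds NF-Y, a partner of SREBP, and the sterol regulatory element (SRE, TCACNCCAC, or its core CACNCCAC, on either strand), where SREBP binds. Hmgcs1, Insig1, Idi1 and Cyp51 come first, and Lss and Mvd after them.
Hmgcs1, chr13:119690101-119690350, plus strand: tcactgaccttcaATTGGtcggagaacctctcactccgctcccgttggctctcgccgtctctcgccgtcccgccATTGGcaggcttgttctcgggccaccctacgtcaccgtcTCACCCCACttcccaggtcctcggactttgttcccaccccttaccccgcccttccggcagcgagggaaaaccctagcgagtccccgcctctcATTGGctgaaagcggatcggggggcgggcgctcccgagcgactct
Insig1, chr5:28071162-28071411, plus strand: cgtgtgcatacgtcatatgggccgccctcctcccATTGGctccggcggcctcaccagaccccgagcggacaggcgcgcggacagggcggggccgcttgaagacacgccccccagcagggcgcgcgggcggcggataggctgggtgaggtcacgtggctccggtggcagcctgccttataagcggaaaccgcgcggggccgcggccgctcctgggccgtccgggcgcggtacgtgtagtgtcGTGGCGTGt
Idi1, chr13:8885356-8885605, plus strand: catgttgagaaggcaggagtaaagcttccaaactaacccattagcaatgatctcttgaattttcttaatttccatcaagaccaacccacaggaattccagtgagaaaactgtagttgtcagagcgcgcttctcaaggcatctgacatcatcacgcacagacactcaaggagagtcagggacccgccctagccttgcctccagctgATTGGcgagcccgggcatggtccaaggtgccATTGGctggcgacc
Cyp51, chr5:4104698-4104947, minus strand: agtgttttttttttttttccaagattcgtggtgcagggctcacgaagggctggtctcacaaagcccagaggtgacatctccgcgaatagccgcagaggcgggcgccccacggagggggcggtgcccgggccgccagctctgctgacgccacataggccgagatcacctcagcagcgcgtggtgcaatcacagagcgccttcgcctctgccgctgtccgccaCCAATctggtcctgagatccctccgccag
Lss, chr10:76531355-76531604, plus strand: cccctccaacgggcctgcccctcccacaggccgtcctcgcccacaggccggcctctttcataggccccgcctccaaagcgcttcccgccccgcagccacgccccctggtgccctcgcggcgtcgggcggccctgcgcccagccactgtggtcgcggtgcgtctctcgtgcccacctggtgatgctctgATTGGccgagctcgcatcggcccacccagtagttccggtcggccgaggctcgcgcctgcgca
Mvd, chr8:122443423-122443672, minus strand: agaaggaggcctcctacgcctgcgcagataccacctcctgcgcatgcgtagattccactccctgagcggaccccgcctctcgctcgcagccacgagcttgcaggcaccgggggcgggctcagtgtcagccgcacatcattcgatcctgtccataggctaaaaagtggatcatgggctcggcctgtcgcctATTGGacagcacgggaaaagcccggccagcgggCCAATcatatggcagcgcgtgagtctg

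Of the 32 genes, 25 had an entry in the RefSeq promoter table. CCAAT was found in the window of 20 of the 25, among them 15 of the 16 enzymes with an entry, beside 33.8% of all 32851 promoters. Both strands were searched, and a gene with several start sites counts if any of its windows holds the letters. The full SRE letters were in 1 of the 25 (Hmgcs1), beside 1.05%, and the core, which every SRE match also contains, was in 3 (Acat2, Hmgcs1 and Insig1), beside 5.29%. All 6 genes shown carry CCAAT, those that rose after LPS 3h as well as those that fell. The interferon element GAAANNGAAA was in 2 of the 25 (Ebp and Ggps1), beside 2.98%, and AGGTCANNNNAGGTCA, the letters of an LXR element, in 0 of the 25, beside 0.0152%. A match is a description of letters, and a missing match says only that these letters are not in these 250 bases.

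Of the transport genes, Stard4, which encodes a sterol carrier between membranes, had 19.9, 26.9 and 18.9 CPM in WT Unstim. cultures and 8.52, 3.04 and 8.69 CPM after LPS 24h. It fell by 1.70 (SE 0.43, adjusted p = 0.00538) without overlap, and its pool 4 value was -1.30. The Irg1 KO cultures had 21, 12.1 and 17.4 CPM in Unstim. and 9.67, 13.5 and 12.1 CPM after LPS 24h, and they overlapped (-0.52, SE 0.42, adjusted p = 0.49). The difference between the genotypes' changes was 1.18 (SE 0.60) and was not called (adjusted p = 0.643). The WT fall was past the threshold in 15 of 15 alternative fits. WT cells at LPS 24h were also below those at LPS 3h (16.8, 8.77 and 18.1 CPM), with a log2 fold change of -1.11 (SE 0.43, adjusted p = 0.0491), which was lost without LPS 3h culture 1 or 3 or LPS 24h culture 2 (-1.07 to -0.82, adjusted p = 0.0958 to 0.197).

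Npc1, the lysosomal cholesterol exporter, had 529, 421 and 331 CPM in Irg1 KO Unstim. cultures and 269, 248 and 227 CPM after LPS 3h. It had 460, 457 and 350 CPM and then 246, 199 and 302 CPM in WT. Neither pair of groups overlapped. The changes were -0.78 (SE 0.30, adjusted p = 0.0402) in Irg1 KO and -0.76 (SE 0.30, adjusted p = 0.0503) in WT. The Irg1 KO value was past the threshold in 3 of 14 alternative fits and turned to 0.10 with pool as a term (adjusted p = 0.892). It was lost without Unstim. culture 1 or 2 or any LPS 3h culture (-0.79 to -0.55, adjusted p = 0.0946 to 0.231). Exons of Npc1 overlap those of Rmc1 and Gm15956 on the other strand.

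In the LXR and efflux arm, the receptor, the exporters and the ligase took different courses. Nr1h3 encodes LXR alpha, and it switched from a low to a high level between 3 h and 24 h. In WT it had 12.6, 13.5 and 12.7 CPM in Unstim., 6.56, 8.30 and 4.24 CPM after LPS 3h, 43.5, 52.3 and 33.5 CPM after LPS 24h, and 72.4, 64.4 and 55.2 CPM after LPS 24h->LPS 3h. The Irg1 KO cultures had 11.7, 21.7 and 12.3 CPM, 11.5, 16.4 and 5.98 CPM, 41.7, 49.4 and 37.5 CPM, and 71.0, 77.7 and 55.4 CPM. All LPS 24h cultures of both genotypes were above all Unstim. and LPS 3h cultures, and all tolerized cultures were above the LPS 24h cultures of their genotype. The fall at 3 h was -1.02 (SE 0.34, adjusted p = 0.0217) in WT, lost without WT Unstim. culture 2 or WT LPS 3h culture 1 or 3 (-0.99 to -0.75, adjusted p up to 0.15), and -0.42 (SE 0.34) in Irg1 KO. The rise at 24 h over Unstim. was 1.74 (SE 0.33, adjusted p = 2.36e-04) and 1.5 (SE 0.33, adjusted p = 0.00153). The Irg1 KO rise was 1.05 and not called with pool as a term (adjusted p = 0.138). From LPS 3h to LPS 24h it rose by 2.75 (SE 0.35, adjusted p = 4.32e-07) in WT, with 2.70, 2.63 and 2.93 in pools 1, 2 and 4, and by 1.92 (SE 0.34, adjusted p = 4.38e-05) in Irg1 KO. Tolerized against non-tolerized cells, the gene was 3.32 higher in WT (SE 0.36, adjusted p = 4.16e-08), with 3.43, 2.93 and 3.65 in pools 1, 2 and 4, and 2.59 higher in Irg1 KO (SE 0.35, adjusted p = 1.19e-06), with 2.6 in pool 2. After the second dose the difference from LPS 24h was 0.57 and 0.67 (SE 0.32 for both, adjusted p = 0.393 and 0.304). Nr1h2, which encodes LXR beta, had group means between 23.5 and 39.2 CPM and passed no test. Exons of Nr1h3 overlap those of Gm13783 by 34 bases on the same strand.

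Abcg1, the exporter that loads cholesterol onto high-density lipoprotein, fell at 3 h in both genotypes. In WT it had 384, 351 and 250 CPM in Unstim., 113, 104 and 106 CPM after LPS 3h, 219, 271 and 418 CPM after LPS 24h, and 107, 89.6 and 84.4 CPM after LPS 24h->LPS 3h. The Irg1 KO cultures had 370, 296 and 307 CPM, 128, 100 and 129 CPM, 138, 124 and 110 CPM, and 72.1, 68.1 and 56.9 CPM. The WT cultures were low, high again and low, while the Irg1 KO cultures stayed below the Unstim. level in every LPS treatment. The fall at 3 h was -1.61 (SE 0.27, adjusted p = 1.86e-05) in WT, with -1.60 in pool 4, and -1.44 (SE 0.27, adjusted p = 7.86e-05) in Irg1 KO. With pool as a term the Irg1 KO fall was -1.16 and not called (adjusted p = 0.0781). At 24 h the WT level was near that of Unstim. (-0.12, SE 0.26) and the Irg1 KO level was below it (-1.38, SE 0.27, adjusted p = 3.30e-04). Abcg1 was lower after the second dose, with a log2 fold change of -1.69 (SE 0.27, adjusted p = 1.53e-04) in WT, with -1.03, -1.60 and -2.31 in pools 1, 2 and 4, and -0.92 (SE 0.27, adjusted p = 0.0367) in Irg1 KO, with -0.99 in pool 1. That last call ended when any 1 of the 6 Irg1 KO cultures was left out (-0.97 to -0.80, adjusted p = 0.0709 to 0.197). Between LPS 3h and LPS 24h Abcg1 rose by 1.49 in WT (SE 0.27, adjusted p = 7.24e-05), with 0.96, 1.39 and 1.97 in pools 1, 2 and 4, and the value in Irg1 KO was 0.06 (SE 0.26). Tolerized Irg1 KO cells were below non-tolerized ones, with a log2 fold change of -0.86 (SE 0.27, adjusted p = 0.0161), which was lost without LPS 24h->LPS 3h culture 3 (-0.79, adjusted p = 0.0673) and with pool as a term (-0.95, adjusted p = 0.108).

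Abca1, the exporter that loads cholesterol onto lipid-poor apolipoprotein, did not follow Abcg1. Its group means ranged from 449 to 798 CPM, and no comparison passed the threshold. The nearest was LPS 24h in WT, where 675, 798 and 923 CPM lay above the 510, 536 and 302 CPM of Unstim. (0.83, SE 0.30, adjusted p = 0.0553). In Irg1 KO the LPS 3h cultures (959, 602 and 654 CPM) lay above the Unstim. cultures (582, 378 and 438 CPM) by 0.66 (SE 0.30, adjusted p = 0.0817).

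Mylip, the ligase that marks lipoprotein receptors for breakdown, fell and stayed low. In WT it had 548, 671 and 364 CPM in Unstim., 137, 117 and 175 CPM after LPS 3h, 167, 188 and 205 CPM after LPS 24h, and 125, 106 and 144 CPM after LPS 24h->LPS 3h. Its Irg1 KO values were 785, 480 and 566 CPM, 129, 90.0 and 132 CPM, 119, 101 and 93.0 CPM, and 71.4, 67.5 and 69.8 CPM. Every Unstim. culture was above every LPS culture. The changes against Unstim. were -1.88 (SE 0.28, adjusted p = 3.05e-06) at 3 h and -1.5 (SE 0.28, adjusted p = 1.52e-04) at 24 h in WT, with -1.54 and -1.32 in pool 4. They were -2.38 (SE 0.29, adjusted p = 6.28e-08) and -2.55 (SE 0.29, adjusted p = 6.39e-08) in Irg1 KO. These 4 values were past the threshold in every alternative fit. Tolerized Irg1 KO cells were also lower than non-tolerized ones, with a log2 fold change of -0.75 (SE 0.27, adjusted p = 0.0411), a call kept in 7 of 14 fits and lost without LPS 3h culture 1 or 3 or any LPS 24h->LPS 3h culture (-0.80 to -0.67, adjusted p = 0.0781 to 0.118).

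**Figure D3:**
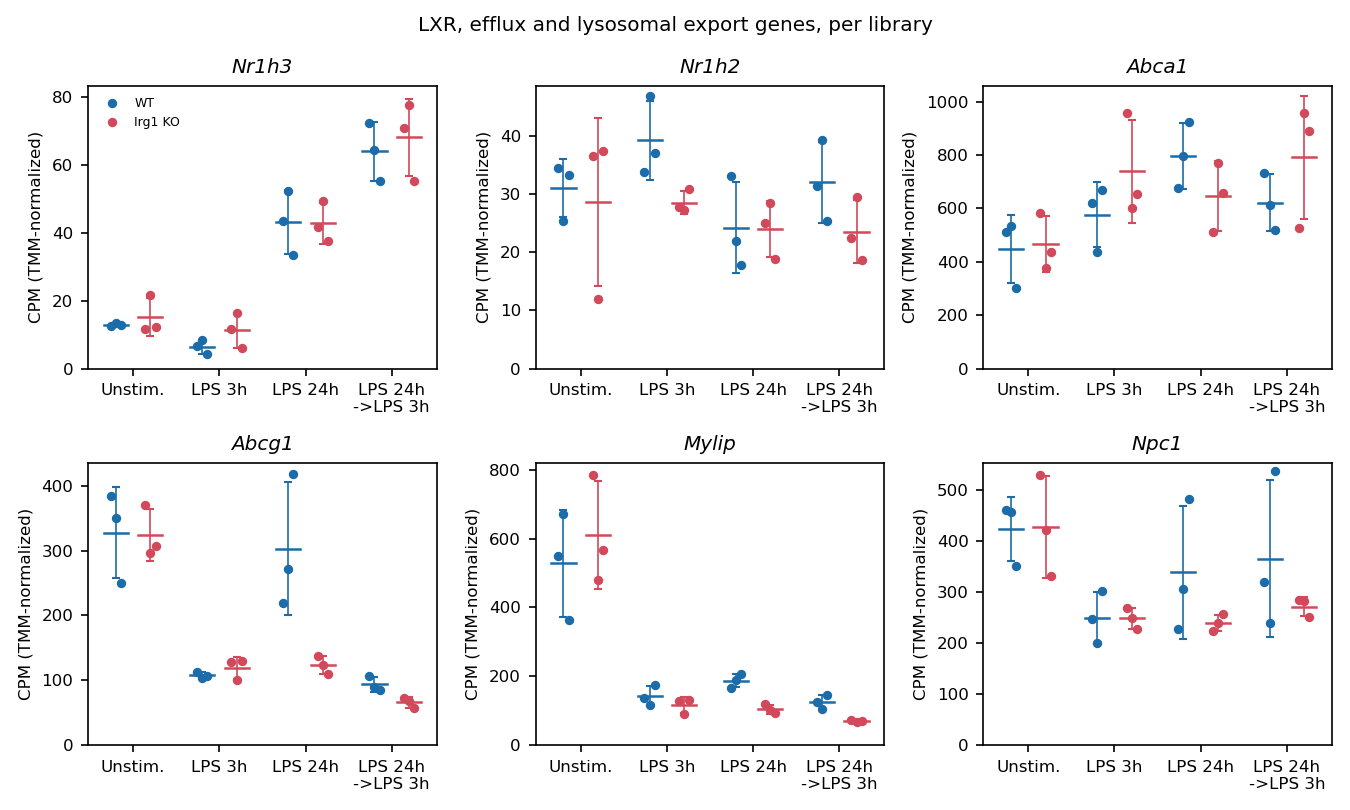
CPM of the 5 genes of the LXR and efflux arm and of Npc1 in each of the 24 libraries, for WT (blue) and Irg1 KO (red) in the 4 treatments. Points are cultures, horizontal lines are means and error bars are SD (n = 3). Nr1h3 was high after LPS 24h, Mylip was low in every LPS group, and Abcg1 after LPS 24h was 219 to 418 CPM in WT and 110 to 138 CPM in Irg1 KO.

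Ch25h, which encodes cholesterol 25-hydroxylase, was the gene with the widest range. In WT it had 0, 0 and 0.195 CPM in Unstim., 141, 86.4 and 76.3 CPM after LPS 3h, 1.46, 4.02 and 5.44 CPM after LPS 24h, and 6.69, 14.4 and 1.45 CPM after LPS 24h->LPS 3h. Its Irg1 KO values were 0.312, 2.83 and 0.535 CPM, 236, 80.5 and 86.0 CPM, 1.35, 2.03 and 0.637 CPM, and 32.6, 26.2 and 27.1 CPM. The LPS 3h cultures were above all others in both genotypes. The WT Unstim. group held 4 reads in all against 2077 after LPS 3h, so the pooled CPM rose 1124-fold with an exact 95% interval of 438 to 4131 that covers counting error only. The fitted change was 10.06 in WT (SE 0.94, adjusted p = 3.23e-10) and ranged from 9.58 to 13.14 between fits, with 4 reads in the lower group. In Irg1 KO the group went from 27 to 3288 reads (6.99, SE 0.77, adjusted p = 1.17e-08), a 171-fold higher pooled CPM (exact 95% interval 117 to 259).

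After LPS 24h the WT group still held 114 reads, above Unstim. by 5.29 (SE 0.94, adjusted p = 8.31e-05), while Irg1 KO gave 0.32 (SE 0.76, adjusted p = 0.846). The difference between those responses was -4.97 (SE 1.27) and was not called (adjusted p = 0.101), but DESeq2's Wald test called it (-5.39, adjusted p = 0.0191), as did edgeR without the filter on low counts (adjusted p = 6.65e-07) or without WT LPS 24h culture 1 (adjusted p = 0.0477). The larger part of it lay in Unstim., where Irg1 KO against WT was 3.48 on 27 reads against 4. At LPS 24h Irg1 KO against WT was -1.49, and the Irg1 KO cultures held 20, 29 and 15 reads. By 24 h Ch25h had dropped from its peak, with changes against LPS 3h of -4.77 (SE 0.66, adjusted p = 1.51e-06) in WT and -6.68 (SE 0.73, adjusted p = 1.66e-08) in Irg1 KO. After the second dose it was higher in Irg1 KO by 4.45 (SE 0.67, adjusted p = 3.53e-05), with 4.26 in pool 1, and all 3 restimulated cultures were above all LPS 24h cultures. In WT it gave 1.02 (SE 0.61, adjusted p = 0.421), with 2.07, 1.80 and -1.79 in pools 1, 2 and 4, and the groups overlapped. The difference between those responses was 3.43 (SE 0.88) and was not called (adjusted p = 0.16), but it was called without the filter on low counts (3.42, adjusted p = 5.35e-07). Tolerized cells stayed below non-tolerized cells, with a log2 fold change of -3.75 (SE 0.63, adjusted p = 3.73e-05) in WT and -2.23 (SE 0.58, adjusted p = 0.00439) in Irg1 KO, where the call ended without LPS 3h culture 1 (-1.57, adjusted p = 0.055). Exons of Ch25h overlap those of Gm26902 on the other strand.

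Of the fatty acid genes, Scd2, a stearoyl-CoA desaturase, rose at LPS 24h and fell after the second dose. In WT it had 7.02, 5.16 and 5.27 CPM in Unstim., 3.83, 1.19 and 2.25 CPM after LPS 3h, 56.0, 38.1 and 37.3 CPM after LPS 24h, and 9.34, 8.67 and 3.47 CPM after LPS 24h->LPS 3h. In Irg1 KO it had 4.36, 3.96 and 3.75 CPM, 3.60, 1.11 and 0.176 CPM, 43.7, 54.8 and 34.3 CPM, and 13.9, 10.1 and 6 CPM. The LPS 24h cultures were above all other cultures. The rise over Unstim. was 2.91 (SE 0.49, adjusted p = 4.23e-05) in WT, with 2.66 in pool 4, and 3.46 (SE 0.51, adjusted p = 7.04e-06) in Irg1 KO. The drop after the second dose was -2.62 (SE 0.49, adjusted p = 0.00103) in WT, with -2.56, -2.11 and -3.36 in pools 1, 2 and 4, and -2.15 (SE 0.47, adjusted p = 0.00409) in Irg1 KO, with -2.46 in pool 1. These 4 values were past the threshold in every alternative fit. LPS 24h cells were above LPS 3h cells by 4.21 (SE 0.54, adjusted p = 4.76e-07) in WT and 4.64 (SE 0.56, adjusted p = 9.60e-08) in Irg1 KO. Tolerized cells were above non-tolerized ones by 2.49 (SE 0.53, adjusted p = 5.97e-04) in Irg1 KO, and 1.4 with pool as a term (adjusted p = 0.175). In WT that difference was 1.59 (SE 0.52, adjusted p = 0.0234) with overlapping groups, and it was lost without LPS 3h culture 2 or 3 or LPS 24h->LPS 3h culture 1 or 2 (1.2 to 1.52, adjusted p = 0.082 to 0.139). Fasn, the fatty acid synthase gene, had group means from 2.34 to 6.29 CPM and passed no test, and at LPS 24h its change was -1.10 (SE 0.55) in WT and -1.12 (SE 0.55) in Irg1 KO, opposite in sign to Scd2. Exons of Scd2 overlap Mir5114 by 61 bases on the same strand.

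**Figure D4:**
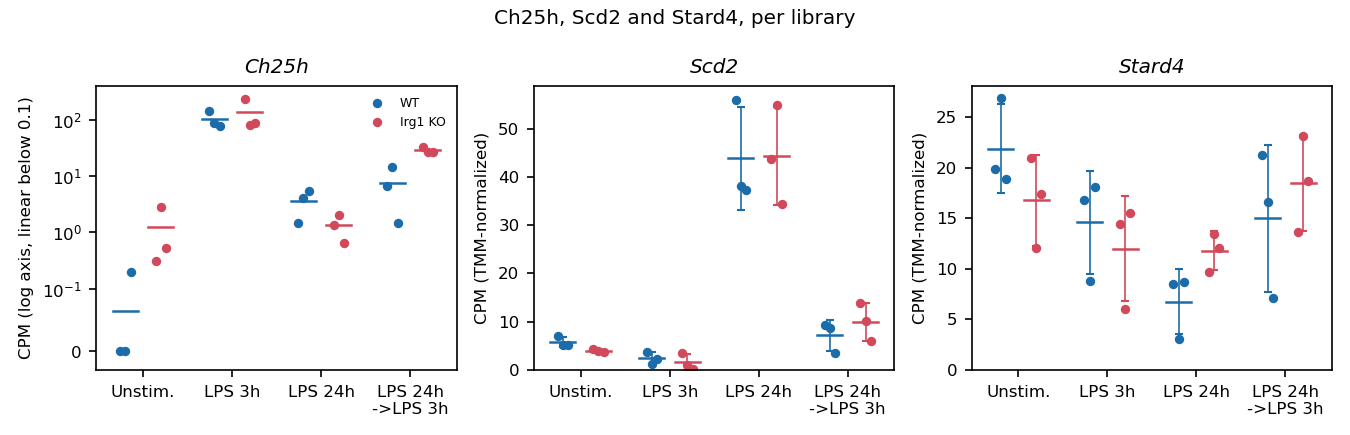
CPM of Ch25h (log axis, linear below 0.1), Scd2 and Stard4 (linear axes) in each of the 24 libraries, for WT (blue) and Irg1 KO (red) in the 4 treatments. Points are cultures and horizontal lines are means, with SD as error bars for Scd2 and Stard4 (n = 3). Ch25h was highest after LPS 3h, and Scd2 was 34.3 to 56.0 CPM after LPS 24h and at most 13.9 CPM elsewhere.

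A list of 24 further genes of sterol and lipid handling was read from the same fits, and 23 of them were tested. After LPS 3h, 0 rose and 7 fell in WT (0% and 30.4% of the 23), beside 15.8% and 16.3% of all genes. In Irg1 KO 0 rose and 8 fell (0% and 34.8%), beside 17.0% and 18.9%. Scarb1, a lipoprotein receptor that also exports cholesterol, went from 33.5 to 8.28 CPM in WT (means, -2.02, SE 0.38, adjusted p = 8.95e-05). Rxra, the partner receptor of LXR, went from 25.6 to 5.02 CPM (-2.35, SE 0.36, adjusted p = 5.39e-06), in the comparison in which Abcg1 and Mylip also fell. Gpr183, the receptor for an oxysterol made from the product of CH25H, went from 26.0 to 1.73 CPM (-3.95, SE 0.75, adjusted p = 1.06e-04), in the libraries in which Ch25h was highest. After LPS 24h, 1 rose and 6 fell in WT, 4.35% and 26.1% of the 23 beside 9.25% and 6.98% of all genes, and 0 rose and 4 fell in Irg1 KO, the latter 17.4% beside 6.38%, while 7.31% of all genes rose. Lipa, the lysosomal lipase that frees cholesterol from its esters, went from 3739 to 1151 CPM in WT (-1.70, SE 0.31, adjusted p = 1.29e-04), and Npc2, the lysosomal sterol carrier that hands cholesterol to NPC1, from 683 to 1627 CPM (1.25, SE 0.30, adjusted p = 0.00339). Cyp27a1, another oxysterol-forming hydroxylase, went from 38.9 to 1.61 CPM (-4.59, SE 0.57, adjusted p = 2.62e-07), a course unlike that of Ch25h. Mbtps1, the first protease that cuts SREBP, fell by 1.08 (SE 0.29, adjusted p = 0.00482) after LPS 3h in WT. None of the 23 genes was called between genotypes in any treatment by edgeR's test, and 0, 1, 2 and 1 of them had an unadjusted p under 0.05 in the treatments in their order above, beside 5.20%, 5.84%, 10.1% and 7.88% of all genes.

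Between genotypes, 0 of the 32 genes were called in Unstim. (5 of all genes, 0.0421%), 0 after LPS 3h (1 gene, 0.00842%), 1 after LPS 24h (71 genes, 0.598%) and 0 after LPS 24h->LPS 3h (14 genes, 0.118%). At an unadjusted p under 0.05 there were 1, 1, 4 and 3 of the 32, beside 5.20%, 5.84%, 10.1% and 7.88% of all genes. The medians of the 32 were -0.15, -0.082, -0.063 and 0.084. The gene called was Abcg1, with 138, 124 and 110 CPM in Irg1 KO against 219, 271 and 418 CPM in WT after LPS 24h (-1.29, SE 0.27, adjusted p = 0.0212), and no culture overlapped. Within pool 1, 3 Irg1 KO cultures against 1 WT culture gave -0.83. The call rested in part on the WT LPS 24h culture 3 from pool 4, which had 418 CPM and the low Lyz2 and Cd68 named above: without that culture the difference was -0.95 and was not called (adjusted p = 0.247). Leaving out any 1 Irg1 KO culture also ended the call (-1.34 to -1.20, adjusted p = 0.0697 to 0.145), as did a fit with only the compared groups (-1.25, adjusted p = 0.253) and pool as a term (-1.18, adjusted p = 0.13). The difference in the response from Unstim. to LPS 24h was -1.27 (SE 0.37) and was not called (adjusted p = 0.213). DESeq2's Wald test called it (-1.30, adjusted p = 0.0321).

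Mylip was lower in Irg1 KO without overlap at LPS 24h (119, 101 and 93.0 against 167, 188 and 205 CPM) and after LPS 24h->LPS 3h (71.4, 67.5 and 69.8 against 125, 106 and 144 CPM). Neither difference passed the threshold (-0.84, SE 0.27, adjusted p = 0.185, and -0.85, SE 0.27, adjusted p = 0.279). Within pools it was -0.69 (pool 1) after LPS 24h and -0.87 and -0.57 (pools 1 and 2) after the second dose. In Unstim. cells it was 0.21 (SE 0.27).

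Ch25h was higher in Irg1 KO than in WT without overlap after LPS 24h->LPS 3h (32.6, 26.2 and 27.1 against 6.69, 14.4 and 1.45 CPM), by 1.94 (SE 0.59, adjusted p = 0.233), with 1.97 and 1.17 in pools 1 and 2. In Unstim. cells it was also higher (3.48, SE 1.09, adjusted p = 0.444), on 27 reads against 4. Both differences, and that at LPS 24h (-1.48, adjusted p = 0.0263), were called without the filter on low counts (adjusted p = 2.15e-04 and 0.00113 for the first pair). Hmgcs1 after LPS 24h->LPS 3h gave 1.17 (SE 0.37, adjusted p = 0.265), with 0.70 and 0.92 in pools 1 and 2. The differences between genotypes in the 3 responses tested (LPS 3h and LPS 24h against Unstim., and the second dose) gave 0 calls among the 32, beside 0.00842%, 0.210% and 0.00842% of all genes, and 1, 3 and 4 of the 32 had an unadjusted p under 0.05, beside 5.68%, 8.14% and 8.66% of all genes. DESeq2's Wald test called 0, 2 and 0 of the 32, the 2 being Abcg1 and Ch25h, beside 0.0337%, 0.749% and 0.429% of all genes.

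**Figure D5:**
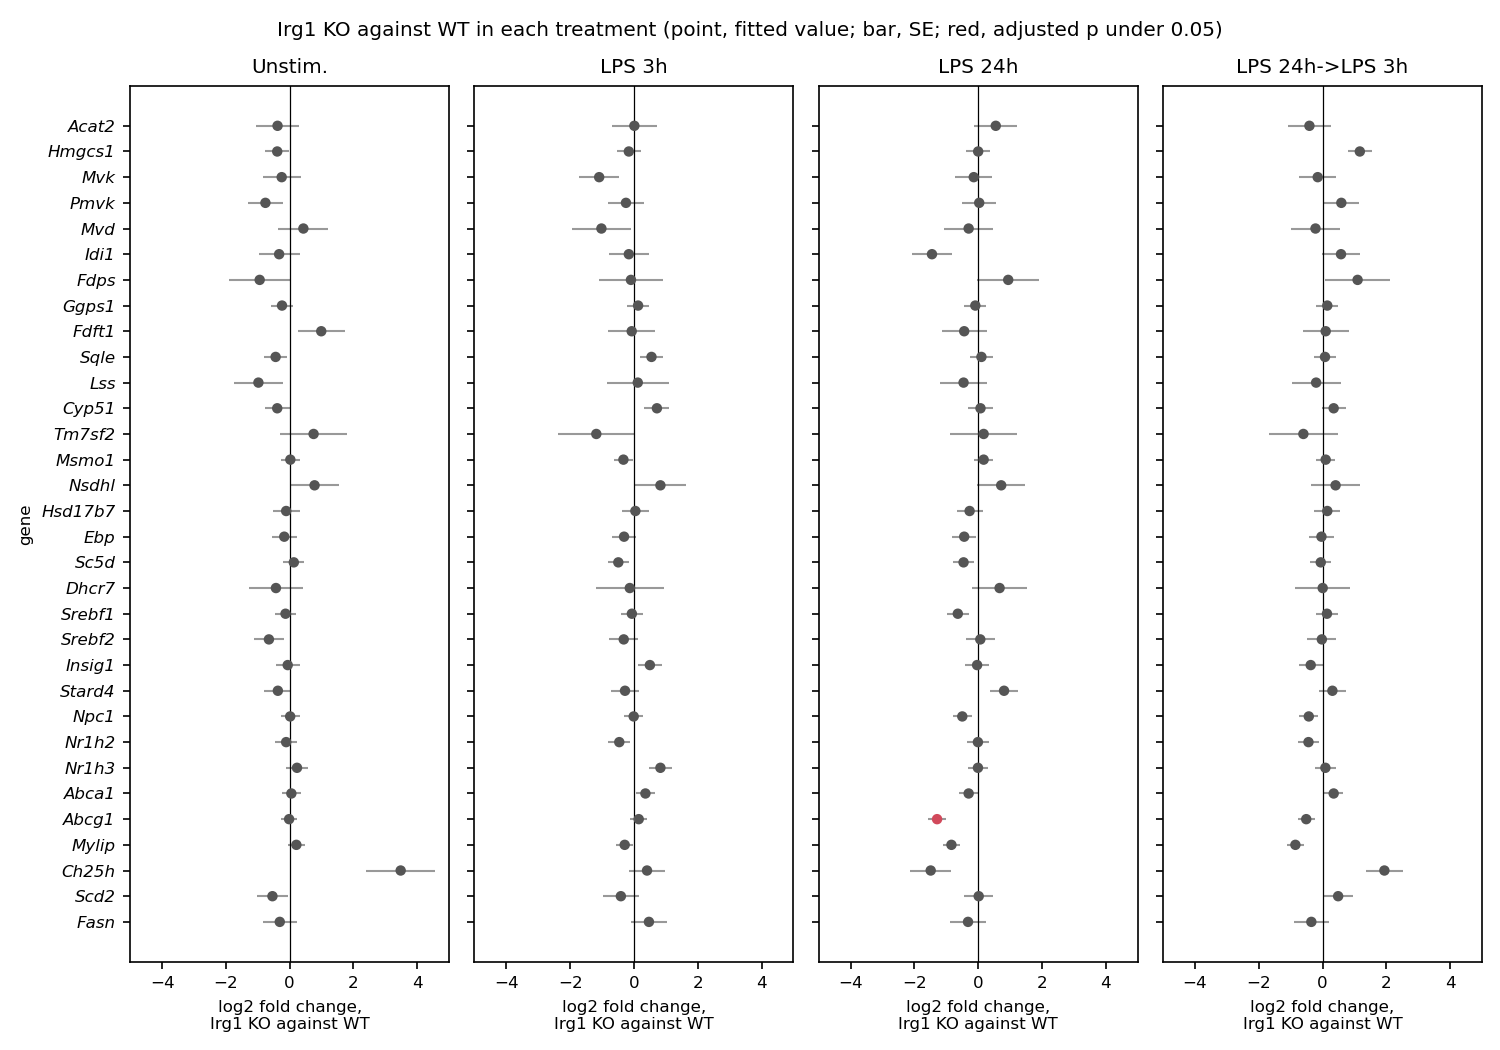
Log2 fold change of the 32 genes in Irg1 KO against WT, 1 panel for each treatment. Points are fitted values from edgeR, bars are standard errors, and red marks an adjusted p under 0.05. Most points lie within 1 of 0, and Abcg1 after LPS 24h at -1.29 is the only red point.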

How the data were processed

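RNA was sequenced from the 3' ends of polyadenylated transcripts, with oligo-dT primers that carry a library barcode and no molecular identifier, so PCR copies were counted as separate reads and intervals cover counting error only. The authors aligned reads to mm10 with STAR and deposited counts of reads per gene, not normalized. The counting program, annotation and strand setting are not given in the sources used here, so genes whose exons overlap another gene are named as such. Neither library sizes nor tests used the 5 summary lines of the table. Per library, 22.1% to 33.7% of reads lay on no feature, 15.1% to 22.5% had no unique alignment and 0.254% to 0.441% were ambiguous.

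Gene IDs were matched to GENCODE M21 (GRCm38), which named 21745 of 22165. edgeR's filterByExpr kept 11878 genes, TMM factors scaled the libraries, and glmQLFit and glmQLFTest fitted 1 term for each of the 8 groups to all 24 libraries, with Benjamini-Hochberg adjustment over all genes tested in each of 17 comparisons and a threshold of 0.05. Each SE was obtained from the log2 fold change and its F statistic. Within-pool values are differences of mean log2 CPM with a prior count of 2. The p-values rest on a spread between libraries within groups that was estimated over all 8 groups, not the compared groups alone. That spread may be technical, since the sources used here do not say whether the libraries of a group came from different mice. The fit was also run on simulated counts with the same spread for all genes and no pools, so uneven spread and pool were not tested there. Alternatives were pool as a term, replicate number as a block, fits of the compared groups alone, DESeq2's size factors or its Wald test, a minimum mean of 10 counts or no filter, TMM with the 20 most counted genes removed, and leaving out each culture in turn. Leaving out both pool 4 WT cultures after LPS 24h was added after seeing the data.

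The 32 genes, the list of 24 others and the rule for naming genes (full values for members past the threshold in a comparison without overlap between groups, the other members by range and count, and from the list of others only those past the threshold in WT at LPS 3h or LPS 24h against Unstim. or between genotypes) were chosen with earlier results of these data known, so no test over the lists was made. Promoter sequences are from RefSeq (GRCm38.p6). The fits ran in edgeR 4.0.16 and DESeq2 1.42.0 under R 4.3.3, and tables and plots were made with pandas 2.3.3 and matplotlib 3.10.9 in Python 3.11.15.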

Additional observations from a re-analysis of the deposited data

How the results depend on the processing

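Of 64 called changes of single genes, 31 were past the threshold in every fit, 36 in every fit on all cultures or without both pool 4 WT cultures after LPS 24h, and 37 whichever single culture was left out. DESeq2's Wald test called all 64 and pool as a term 43, and the sign turned once, for Npc1 in Irg1 KO cells after LPS 3h (0.10 with pool as a term). With pool as a term every Irg1 KO LPS 3h value rested on culture 1, because cultures 2 and 3 made up pool 3. The counts given next with pool as a term for comparisons with Irg1 KO LPS 3h share this limit. The cause of the turn in sign was not tested.

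The number of the 32 genes called in Irg1 KO at LPS 3h against Unstim. was 10, 5 with only the compared groups or with pool as a term, and 5 to 9 with 1 culture left out. Over all genes the calls went from 4260 to 3258 and 2361 in the same fits. With pool as a term it was 3 instead of 10 for LPS 24h against LPS 3h (all genes 1771 instead of 4162) and 3 instead of 8 for tolerized against non-tolerized cells (1407 instead of 3233), where leaving out 1 culture gave 5 to 9. For the second dose it was 5, and 3 to 4 with 1 culture left out. For the genotypes, no filter on low counts gave 1 in Unstim., 2 at LPS 24h, 1 in tolerized cells and 1 in each of the 3 differences between responses (all genes 39, 246, 133, and 26, 112, 170). After LPS 24h the count was 0 with only the compared groups, with pool as a term and without both pool 4 WT cultures, and 0 to 1 with 1 culture left out. DESeq2's Wald test gave 2 for the difference in the response to LPS 24h, and leaving out 1 culture gave 0 to 1.

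Over 84 pairs of libraries with the same replicate number, the correlation of deviations from the group means ran from -0.109 to 0.337 (median 0.0179). Of 24 libraries, 9 correlated best with their own number. The pairs include WT with Irg1 KO libraries, which cannot share a mouse, so pairing within a genotype was not tested. In WT cells with LPS, replicate number and pool cannot be told apart. With replicate number as a block, the counts were 9, 6, 9, 2 and 4 in WT and 11, 5, 9, 5 and 8 in Irg1 KO, in the order of the report, and 0, 0, 1 and 0 between genotypes. Of all genes that fit called 34.1%, 17.0%, 33.9%, 4.35% and 26.7% in WT. The shares were 37.0%, 14.7%, 37.3%, 5.76% and 29.1% in Irg1 KO, and 0.0253%, 0.00842%, 0.564% and 0.0926% between genotypes. The block kept 62 of the 64 calls. Depth limits the 11 genes with a median under 50 reads.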
